A study of Mus musculus with 3 samples.

Results

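The 10 genes described here belong to glucose breakdown and the low-oxygen response, and were followed across 3 RNA sequencing libraries of cultured mouse neural stem cells: the glucose transporter gene Slc2a1, the hexokinase genes Hk1 and Hk2, Pfkp, Aldoa, Gapdh, Pgk1, Ldha, Pdk1 and Bnip3. The set was chosen by name with earlier results of these data known, and all 10 had a row in the deposited table of 16977 genes and passed the filter on low values (a mean of at least 10 normalised reads). The cells were dividing progenitors from the brain of C57BL/6J embryos at E12.5, grown with EGF and FGF, and had been infected with a lentivirus carrying a control short hairpin RNA (shControl, 1 library) or a hairpin against PHF2, a histone demethylase (shPHF2, 2 libraries described as biological replicates). One hairpin per group is named, and in a pool of cells a lower share of expressing cells and less RNA per cell cannot be told apart. Nothing beyond the words "biological replicates" says whether they came from separate cultures. The lone control has no spread of its own, so the p-values rest on the difference between the 2 shPHF2 libraries (1 residual degree of freedom) and mostly on the variance that limma borrows from other genes (6.94 prior degrees of freedom).

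Glycolysis breaks glucose down to pyruvate in the cytosol. Hexokinase traps glucose in the cell as glucose 6-phosphate, phosphofructokinase commits it to breakdown, and lactate dehydrogenase turns pyruvate into lactate when it does not enter mitochondria. HK1 is the broadly expressed hexokinase and the main one of adult brain, while HK2 is the inducible form of muscle and of many dividing and tumour cells; both can dock on the outer mitochondrial membrane. Under low oxygen the transcription factor HIF-1 raises most of these genes, as well as Pdk1, whose kinase shuts the gate of pyruvate into the citric acid cycle, and Bnip3, whose product marks mitochondria for removal by autophagy.

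HIF-1 binds the core letters ACGTG or GCGTG, so the promoters of 4 of the genes are shown to make visible how often those letters occur in the 250 bases before the start. These 4 were picked for contrast, since Hk1 and Bnip3 were higher in shPHF2, Hk2 was lower and Ldha did not pass the test. Sequences are from RefSeq (GRCm38.p6), read along the gene's own strand, and capitals mark ACGTG or GCGTG on either strand.
Hk1, second listed start (chr10:62340422-62340671, minus strand): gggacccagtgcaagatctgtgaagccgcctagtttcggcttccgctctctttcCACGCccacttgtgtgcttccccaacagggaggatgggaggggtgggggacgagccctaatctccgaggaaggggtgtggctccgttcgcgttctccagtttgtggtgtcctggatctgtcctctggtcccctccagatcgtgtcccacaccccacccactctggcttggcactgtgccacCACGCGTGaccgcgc
Hk2 (chr6:82774455-82774704, minus strand): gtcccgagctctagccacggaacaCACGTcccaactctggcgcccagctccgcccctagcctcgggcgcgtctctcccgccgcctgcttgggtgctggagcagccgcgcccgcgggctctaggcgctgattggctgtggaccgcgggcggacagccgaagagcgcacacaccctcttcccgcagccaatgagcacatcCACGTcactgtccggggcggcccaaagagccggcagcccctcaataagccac
Bnip3 (chr7:138909507-138909756, minus strand): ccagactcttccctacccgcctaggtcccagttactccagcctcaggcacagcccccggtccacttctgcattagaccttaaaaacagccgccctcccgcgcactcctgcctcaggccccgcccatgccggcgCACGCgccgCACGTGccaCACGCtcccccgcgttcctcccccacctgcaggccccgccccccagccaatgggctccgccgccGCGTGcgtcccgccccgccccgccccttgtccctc
Ldha, first listed start (chr7:46845554-46845803, plus strand): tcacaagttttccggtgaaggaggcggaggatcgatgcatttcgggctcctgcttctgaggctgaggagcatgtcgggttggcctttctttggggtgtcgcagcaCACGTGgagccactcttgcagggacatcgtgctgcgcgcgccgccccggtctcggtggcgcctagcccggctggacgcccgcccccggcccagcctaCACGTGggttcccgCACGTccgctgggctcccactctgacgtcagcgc

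Counting each strand, Bnip3 and Ldha held 5 matches each, the second Hk1 start held 3 and Hk2 held 2. The letters CACGTG read the same on both strands and hold a match on each, so they count as 2 and are also the core of the E-box motif. The first Hk1 start held 0. Taking for each gene the start with most matches, all 10 genes held at least 1, and 4 of the 10 held 3 or more. By the same rule 61.0% of 10296 tested genes with a listed promoter held at least 1 and 13.7% held 3 or more. Of the genes with 5 matches, Bnip3 rose and Ldha did not pass. Pdk1, which also rose, held 1 at its first listed start. Whether the number of matches goes with the RNA difference was not tested. A match is only a run of letters, and no binding was measured here.

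The hexokinase genes Hk1 and Hk2 differed from the control in opposite directions. Hk1 (chromosome 10, 62268855 to 62379908, minus strand) stood at 1964 normalised reads, which are reads divided by the size factor of the library, in shControl. It reached 3633 in shPHF2 replicate 1 and 4270 in replicate 2. Both shPHF2 libraries stood above the control, and the shPHF2 mean of 3952 ± 451 (SD, n = 2) was 2.01-fold the control value. On the log2 scale Hk1 rose by 1.00 ± 0.19 (SE; limma, adjusted p = 0.015).

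Hk2 (chromosome 6, 82725025 to 82774454, minus strand) went the other way. From 2485 normalised reads in the control library it dropped to 1246 in replicate 1 and 1223 in replicate 2. The knockdown mean was 1234 ± 16.3 (SD, n = 2), or 49.7% of the control. The shPHF2 libraries agreed closely and both lay well below the control, with a log2 difference of -1.01 ± 0.18 (SE; limma, adjusted p = 0.015). Counting error alone would place the control value of Hk2 between 2388 and 2584 and that of Hk1 between 1878 and 2052 (exact Poisson, 95% confidence).

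Set against each other, the hexokinases changed places in normalised reads. The ratio of Hk1 to Hk2 reads was 0.790 in shControl, 2.92 in replicate 1 and 3.49 in replicate 2. On the log2 scale that is -0.34 in the control and a shPHF2 mean of 1.67 ± 0.18 (SD, n = 2), a difference of 2.01, or 4.04-fold. A single ratio in 1 control against 2 libraries cannot reach p under 0.05 in an exact permutation test, where the smallest one-sided p is 0.333, so the ratio is given as a description. Its difference stayed between 1.88 and 2.14 when either shPHF2 library was left out.

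Per kilobase of annotated exon, Hk2 was the more abundant hexokinase in shControl (416 normalised reads per kb against 230 for Hk1). In shPHF2 Hk1 was the more abundant, at 426 against 209 in replicate 1 and 501 against 205 in replicate 2. Hk1 thus made up 35.6% of the summed level of both in the control, and 67.1% and 71.0% in the shPHF2 libraries. That sum moved far less than its parts, with 646 normalised reads per kb in shControl, 635 in replicate 1 and 705 in replicate 2. In normalised reads not divided by exon length the sum was 4449, 4879 and 5493 in the same order, so higher in both shPHF2 libraries. Exon lengths are those of GENCODE M21, not necessarily the models the authors counted on, and no isoforms were separated. They join the exons of all annotated isoforms, 8532 bases for Hk1 and 5969 for Hk2. Which hexokinase ranks first in a library depends on these lengths, while the change of each gene between libraries does not.

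**Figure D1:**
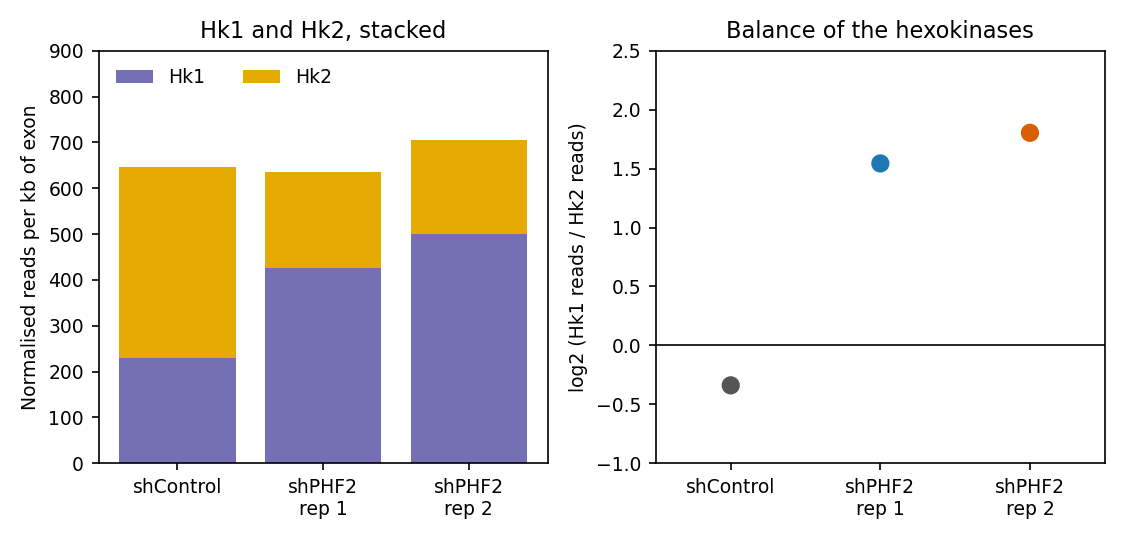
Left, stacked bars of Hk1 and Hk2 levels in normalised reads per kilobase of exon in each of the 3 libraries; right, the log2 ratio of Hk1 to Hk2 reads in each library, with the line at equal reads. In reads per kilobase the bars reach similar heights (635 to 705) while the Hk1 portion grows from 230 to 426 and 501. The ratio passes from -0.34 to 1.54 and 1.80.

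Hkdc1, a further gene of the hexokinase family, was scarce, with 2.99 normalised reads in shControl, 28.3 in replicate 1 and 1.21 in replicate 2. It did not pass the test (limma, adjusted p = 0.73), and Hk3 had no row in the table used here.

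Of the 10 genes, 3 rose (Hk1, Pdk1 and Bnip3), 1 fell (Hk2) and 6 did not pass (limma, two-sided, p adjusted over all genes and under 0.05). Of 14148 genes tested, 14.3% passed, with 7.22% higher and 7.11% lower; among genes with a mean of at least 100, as all 10 had, 16.7% passed. The median log2 fold change of the 10 genes was 0.30, against -0.01 over all genes tested; since the 10 were chosen with earlier results known, neither figure supports a statement about them as a set. The control lay outside the range of both shPHF2 libraries for 9 of the 10 genes, which is close to the 83.2% of all genes tested for which it did and says little. The authors' deposited table called 5 of the 10, the same 4 and Aldoa, where 16.0% of the 12697 genes with an adjusted p passed (8.04% higher and 7.96% lower). On the recovered reads edgeR called the same 4 as limma, with 15.2% of all genes passing, and DESeq2 the same 5 as the authors, with 15.1%. With no filter on low values, no mean-variance trend or quantile normalization, limma called 0 of the 10 and 0 of all genes. In the same order, 5, 5 and 6 of the 10 had an unadjusted p under 0.05. So had 3893 of 16977, 3300 of 14148 and 3700 of 14148 genes over all.

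**Figure D2:**
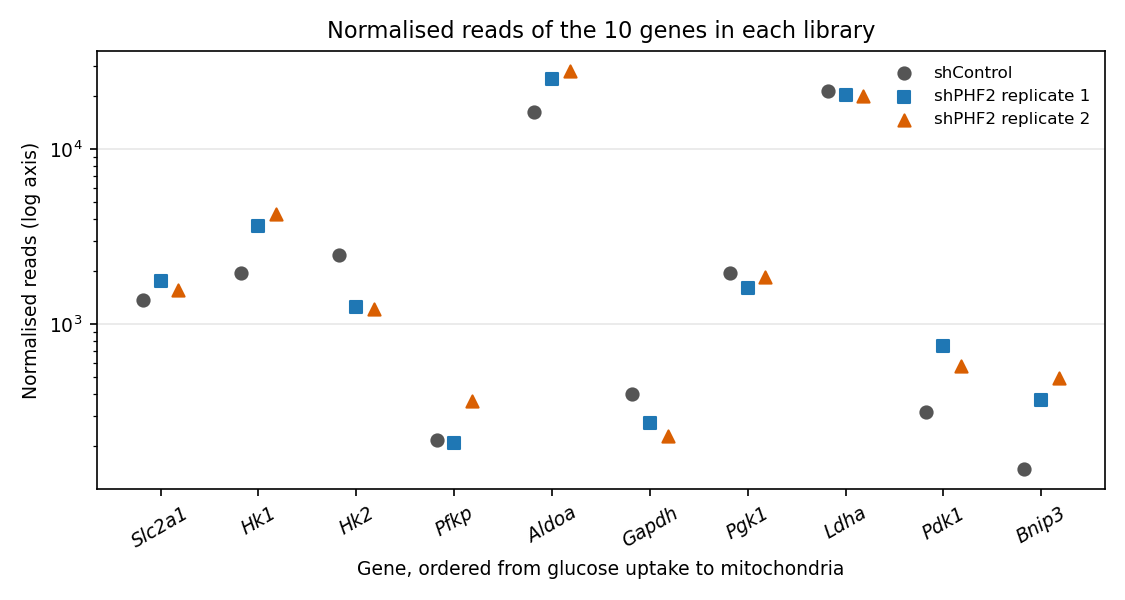
Normalised reads (log axis) of the 10 genes in shControl (circles), shPHF2 replicate 1 (squares) and replicate 2 (triangles), 1 point per library. Hk1, Pdk1 and Bnip3 lie higher in both shPHF2 libraries, Hk2 lies lower in both (1246 and 1223 against 2485), and Ldha stays between 20068 and 21410.

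Glucose entry showed no change that passed the test. Slc2a1 (chromosome 4, 119108711 to 119137983, plus strand), which encodes the facilitative transporter GLUT1, had 1373 normalised reads in shControl, 1771 in replicate 1 and 1558 in replicate 2, a log2 difference of 0.27 ± 0.19 (SE; limma, adjusted p = 0.38). Slc2a3, for the neuronal transporter GLUT3, had 215, 181 and 166 in the same order (limma, adjusted p = 0.58), and its level in shControl was 29.7 normalised reads per kb against 391 for Slc2a1.

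Downstream of hexokinase, the middle steps were mixed. Pfkp (chromosome 13, 6579768 to 6648777, minus strand), the platelet-type phosphofructokinase, had 218 normalised reads in shControl, 208 in replicate 1 and 363 in replicate 2. It is the only one of the 10 genes whose control value lay between the shPHF2 values, and its log2 differences from the control, -0.07 and 0.73, had opposite signs (limma, adjusted p = 0.61). Pitrm1, on the opposite strand, shares 5.58% of the annotated exon bases of Pfkp and had 3767, 2914 and 2718 normalised reads in the same order. The strand setting of the counting is not given, and the part of Pitrm1 reads in the Pfkp values was not tested. Per kilobase Pfkm and Pfkl were the more abundant phosphofructokinase genes in shControl (710 and 225 against 16.3 for Pfkp). They had log2 fold changes of -0.01 and -0.38 and did not pass either (limma, adjusted p = 0.98 and 0.23).

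Aldoa (chromosome 7, 126795234 to 126800751, minus strand), whose aldolase splits fructose 1,6-bisphosphate, stood near the threshold. It had 16209 normalised reads in shControl, 25138 in replicate 1 and 28051 in replicate 2, a mean of 26594 ± 2060 (SD, n = 2), and both shPHF2 libraries were above the control. The log2 difference of 0.71 ± 0.22 (SE) did not pass in limma (adjusted p = 0.065) or edgeR, but passed in DESeq2 run on the recovered reads (adjusted p = 0.0095) and in the authors' deposited table (adjusted p = 0.012). Its paralog Aldoc, the aldolase of brain and astrocytes, had 4772 normalised reads in shControl, 3998 in replicate 1 and 1522 in replicate 2 (limma, adjusted p = 0.20).

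Gapdh (chromosome 6, 125161715 to 125166467, minus strand), the step that makes NADH, had 399 normalised reads in shControl, 271 in replicate 1 and 230 in replicate 2. Both shPHF2 values were lower, with a log2 difference of -0.67 ± 0.30 (SE), but the difference did not pass (limma, adjusted p = 0.17). These values are low for a gene used as a reference in most cells: at 96.5 normalised reads per kb in shControl, Gapdh lay below Aldoa (5568) and Ldha (6468) in level. In GENCODE M21, 109 annotated pseudogenes matched the Gapdh transcript at 90% identity or more over at least 300 bases, against 13 for Ldha, 5 for Aldoa, 4 each for Pgk1 and Bnip3 and 0 for Hk1, Hk2, Slc2a1, Pfkp and Pdk1. The sources used here do not say how the counting treated reads that align to several copies, so the level of Gapdh and its change are uncertain. Of the 109, 3 had a row of their own in the deposited table, with a summed mean of 156 normalised reads against a mean of 299.98 for Gapdh itself. The part of the other copies was not tested.

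The later enzymes showed no change that passed the test. Pgk1 (chromosome X, 106187100 to 106203699, plus strand), the first ATP-yielding step, had 1960 normalised reads in shControl, 1617 in replicate 1 and 1860 in replicate 2, a log2 difference of -0.18 ± 0.19 (SE; limma, adjusted p = 0.58). Ldha (chromosome 7, 46841475 to 46855627, plus strand), a textbook HIF-1 target, had 21410, 20370 and 20068 in the same order. Its log2 difference of -0.08 ± 0.21 (SE; limma, adjusted p = 0.82) was the smallest of the 10 genes in size, while its partner subunit gene Ldhb had 2710, 2875 and 3820 (limma, adjusted p = 0.40).

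Of the genes for pyruvate dehydrogenase kinases, Pdk1 and Pdk2 rose. Pdk1 (chromosome 2, 71873224 to 71903858, plus strand), which encodes pyruvate dehydrogenase kinase 1, had 315 normalised reads in shControl, 747 in replicate 1 and 576 in replicate 2. Both were above the control, with a mean of 662 ± 121 (SD, n = 2) or 2.10-fold, and a log2 difference of 1.06 ± 0.27 (SE; limma, adjusted p = 0.038). Pdk2, which encodes a kinase of the same family, rose further, from 114 to 491 in replicate 1 and 623 in replicate 2, a log2 difference of 2.27 ± 0.30 (SE; limma, adjusted p = 0.0068). Pdk3 had 918, 1105 and 1036 (limma, adjusted p = 0.50). Pdk4, the fasting-induced form, had 3.99, 6.67 and 91.6, so that nearly all its reads came from replicate 2 (limma, adjusted p = 0.29).

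Bnip3 (chromosome 7, 138890836 to 138909519, minus strand) had the largest log2 fold change of the 10 genes. It had 149 normalised reads in shControl, where counting error alone spans 126 to 174 (exact Poisson, 95% confidence), 371 in replicate 1 and 494 in replicate 2. The shPHF2 mean of 433 ± 87.2 (SD, n = 2) was 2.91-fold the control, with a log2 difference of 1.52 ± 0.32 (SE; limma, adjusted p = 0.021). An antisense gene, Gm45507, shares 22.3% of the annotated exon bases of Bnip3, and the sources used here do not say whether counting used the strand, so reads of that partner cannot be told apart from those of Bnip3. Its close relative Bnip3l, also a mitophagy receptor, had 2605, 2087 and 2329 in the order shControl, replicate 1 and replicate 2 and did not pass (log2 fold change -0.24; limma, adjusted p = 0.41).

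Ordered by level per kilobase, the 10 genes ran in shControl from Ldha (6468) and Aldoa (5568) through Pgk1 (873), Hk2 (416), Slc2a1 (391), Hk1 (230), Gapdh (96.5), Bnip3 (65.6) and Pdk1 (40.5) to Pfkp (16.3). By shPHF2 means Aldoa (9136) led Ldha (6108), followed by Pgk1 (775), Slc2a1 (475), Hk1 (463), Hk2 (207), Bnip3 (191), Pdk1 (85.1), Gapdh (60.6) and Pfkp (21.3). In shPHF2 the neighbours Slc2a1 and Hk1 had overlapping values, as had Hk2 and Bnip3, and no other neighbours overlapped. Such an order rests on the annotated exon lengths and, in shControl, on 1 library.

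The other enzymes between glucose and pyruvate gave no call. Of 21 listed isoforms and steps outside the 10 genes, 19 had a row, 16 were tested and 0 were called by limma. Of the 16, 3 had an unadjusted p under 0.05 in limma, edgeR called 1 (Bpgm) and DESeq2 called 0. Over all 14148 genes tested, 4414 had an unadjusted p under 0.05 in limma. By adjusted p, limma called 14.3% of all genes, edgeR 15.2% and DESeq2 15.1%. The median log2 fold change of the 16 was 0.14. Phosphoglucose isomerase (Gpi1) had 5822 normalised reads in shControl, 7637 in replicate 1 and 9311 in replicate 2 (limma, adjusted p = 0.11), and triose-phosphate isomerase (Tpi1) had 8355, 10980 and 13531 (limma, adjusted p = 0.12). Both stood above the control in each shPHF2 library without passing.

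Pyruvate kinase (Pkm), with the most reads of this list, had 33923, 29425 and 35648 normalised reads in the order shControl, replicate 1 and replicate 2, with the control between the shPHF2 values. The phosphoglycerate mutase gene Pgam1 (736, 600 and 820) and the enolase gene Eno1 (88.7, 128 and 117) did not pass either. Eno1 was also low, at 16.5 normalised reads per kb in shControl. Of annotated pseudogenes, 5 matched Eno1 and 8 matched Pkm, none with a row in the table used here. The levels of both are uncertain in the same way, and the part of such matches in the low Eno1 level was not tested. Gapdhs, a sperm form, had 69.8, 91.7 and 78.4. Ldhc was below the filter and Pgk2 had no row in the table used here. Bpgm, which diverts an intermediate to 2,3-bisphosphoglycerate, had a log2 fold change of -0.73 just outside the threshold (limma, adjusted p = 0.055; edgeR, adjusted p = 0.037), and is named after its value was seen.

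**Figure D3:**
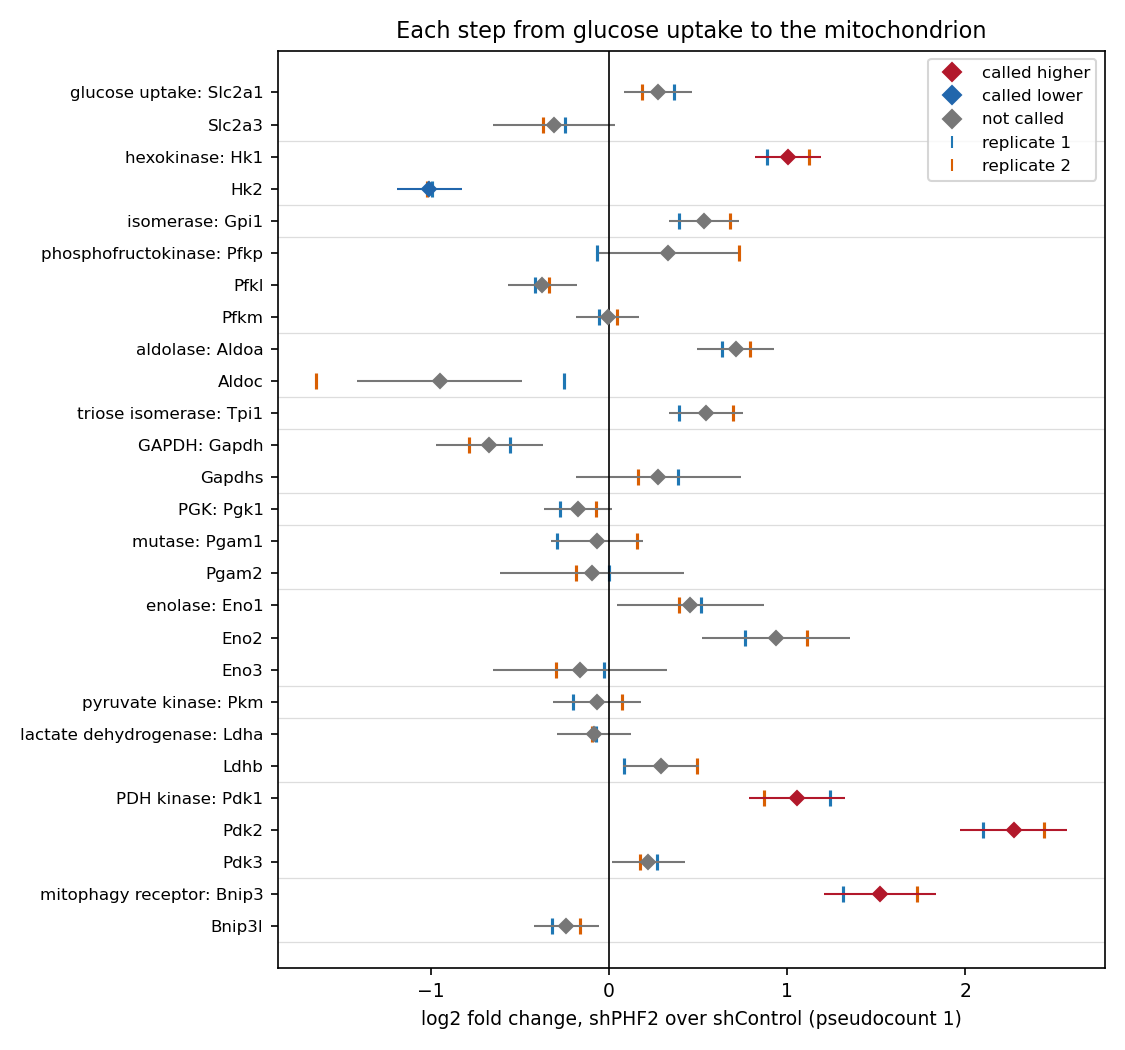
Log2 fold changes of genes at each step (diamonds, with bars of 1 standard error from limma; red higher, blue lower, grey not passing) with the differences of each shPHF2 library from the control as ticks. Hk1 (1.00) and Hk2 (-1.01) lie on opposite sides of 0, Pdk1, Pdk2 and Bnip3 lie to the right, and Ldha, Pgk1 and Pkm lie near 0.

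Control and transport around the pathway changed at single genes, where 14.3% of all genes tested passed. Of 5 genes that set the level of fructose 2,6-bisphosphate, the main activator of phosphofructokinase, 1 fell: 9630033F20Rik, the symbol for Tigar, a phosphatase that lowers it and is a p53 target, went from 1542 normalised reads to 932 and 904 (log2 fold change -0.75; limma, adjusted p = 0.043). That call was lost with DESeq2 (adjusted p = 0.060) and with scaling to total reads (limma, adjusted p = 0.065), and the authors' deposited table does not call it (adjusted p = 0.052). Pfkfb3, with the most reads of the 5, had 2437, 1694 and 1673 (limma, adjusted p = 0.085).

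Of 11 transport genes, 2 rose and 1 fell, where 7.22% of all genes tested rose and 7.11% fell. Slc2a8, an intracellular glucose transporter, rose from 196 normalised reads to 453 and 486 (log2 fold change 1.25; limma, adjusted p = 0.025). Slc2a13, a proton-coupled myo-inositol transporter and so not a glucose carrier, rose from 773 to 1757 and 1481 (log2 fold change 1.06; limma, adjusted p = 0.017). Slc16a1, the monocarboxylate transporter MCT1 for lactate and pyruvate, fell from 5074 to 2975 and 3375 (log2 fold change -0.68; limma, adjusted p = 0.043), a call lost with scaling to total reads (adjusted p = 0.063) and with a correction for GC content and length (adjusted p = 0.072). Bsg, its chaperone and the gene with most reads in the list, had 8228, 11126 and 13112 (limma, adjusted p = 0.099).

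At the mitochondrial entry of pyruvate, Pdk2 was the 1 gene of 13 that passed, where 14.3% of all genes tested did. The pyruvate dehydrogenase subunit gene Pdha1, with the most reads, had 8399 normalised reads in shControl, 6771 in replicate 1 and 8042 in replicate 2 (limma, adjusted p = 0.56). In the pentose phosphate pathway, which branches off after hexokinase and makes ribose and NADPH, 1 of 8 genes fell and 0 rose. Among all genes tested, 7.11% fell and 7.22% rose. Rpia, for the enzyme that makes ribose 5-phosphate, went from 649 to 244 and 301 (log2 fold change -1.25; limma, adjusted p = 0.028), while the transketolase gene Tkt, with the most reads, had 11056, 9017 and 9973 (limma, adjusted p = 0.47).

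Among hypoxia-inducible genes outside the 10, 26 were listed, 25 had a row, 23 were tested, 3 rose and 1 fell. That is 4 of 23 where 14.3% of all genes tested passed, and the median log2 fold change was 0.15 against -0.01 over all genes. Hmox1, the heme oxygenase that also answers oxidative stress, rose from 1010 normalised reads to 4264 and 3207 (log2 fold change 1.87; limma, adjusted p = 0.0054). Ddit4, an inhibitor of mTOR signalling, rose from 1132 to 2527 and 2992 (log2 fold change 1.28; limma, adjusted p = 0.0089). The collagen lysyl hydroxylase gene Plod1 rose from 1376 to 2528 and 2743 (log2 fold change 0.94; limma, adjusted p = 0.017).

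Ak4, a mitochondrial adenylate kinase, was the gene of this list that fell, from 6035 normalised reads to 3301 and 3766 (log2 fold change -0.78; limma, adjusted p = 0.030). Of the 10 genes of oxygen sensing itself, 9 were tested and 0 were called by limma, edgeR or DESeq2, and 2 had an unadjusted p under 0.05 in limma. Over all genes, limma called 14.3%, edgeR 15.2% and DESeq2 15.1%, and 4414 of 14148 had an unadjusted p under 0.05 in limma. Hif1a RNA had 12128 normalised reads in shControl, 12624 in replicate 1 and 10982 in replicate 2 (limma, adjusted p = 0.91). HIF-1 is controlled mainly through the stability of its protein, which was not measured.

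The gluconeogenesis and mitophagy lists gave no call. Of 8 gluconeogenesis genes, 4 were in the table and 0 of these were called by limma, edgeR or DESeq2, with 0 at an unadjusted p under 0.05; pyruvate carboxylase (Pcx), with the most reads, had 2143, 2267 and 2451 normalised reads in the order shControl, replicate 1 and replicate 2. Of 7 mitophagy receptors and factors outside the 10 genes, 0 were called by the same 3 tools and 1 had an unadjusted p under 0.05 in limma. Over all genes tested, 4414 of 14148 had such a p, edgeR called 15.2% and DESeq2 15.1%. Fkbp8, with the most reads among the 7, had 5315, 5458 and 6423. Over all the lists, 101 of 108 genes had a row, 95 were tested, 6 rose and 4 fell, so 10 of 95 passed where 14.3% of all genes tested did.

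**Figure D4:**
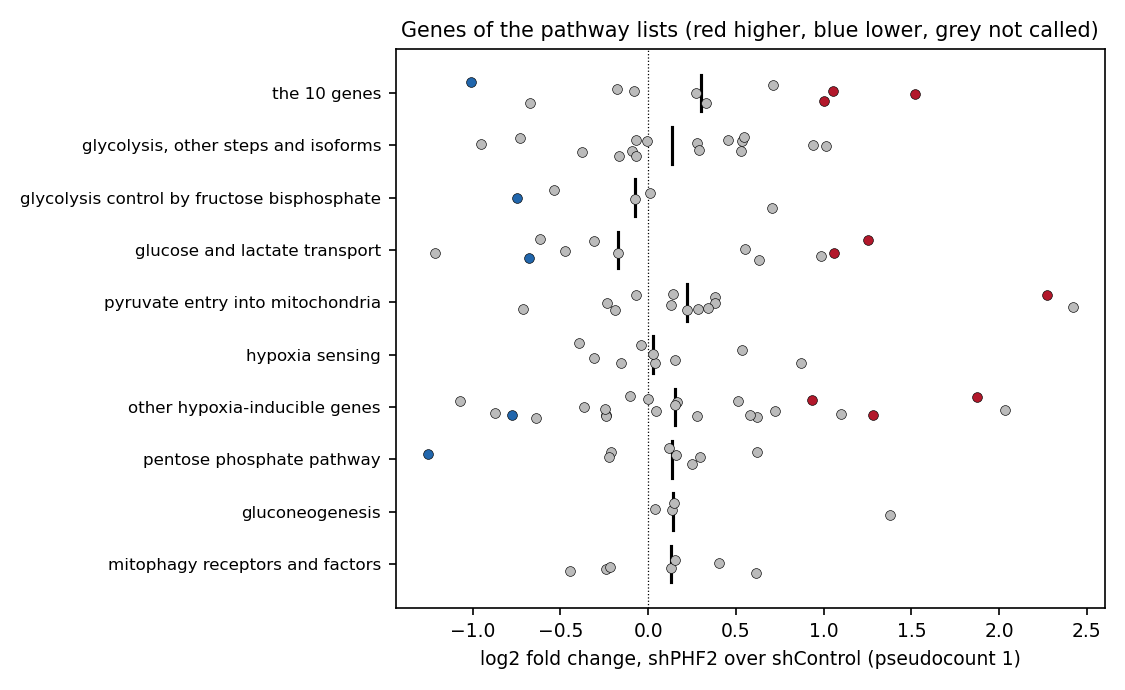
Log2 fold changes (shPHF2 over shControl) of the 10 genes and of each list, 1 point per gene tested, with a black bar at the median; points are spread vertically only for visibility. The medians lie between -0.17 for transport and 0.30 for the 10 genes, and coloured points (genes that passed) are single genes on both sides of 0.

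For the pair of log2 differences from the control in replicates 1 and 2, the genes nearest to Hk1 among 6788 genes with a mean of at least 1000 were Ric3, Irs2 and Irf2bpl, at Euclidean distances of 0.02, 0.03 and 0.03. Those nearest to Hk2 were Ipo5, Pus7 and Isoc1, at 0.01, 0.01 and 0.02. With 82 genes within 0.2 of Hk1 and 162 within 0.2 of Hk2, such likeness over 3 libraries picks out no gene in particular.

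Phf2 itself checked the labels: it had 2593 normalised reads in shControl, 985 in replicate 1 and 714 in replicate 2 (log2 fold change -1.63; limma, adjusted p = 0.0085). Libraries held 26302177 to 37171026 reads in genes. All 12 neural stem markers had a row, 1 of them, Sox2, rose, and their summed level was 324462 normalised reads in shControl and 336153 and 382869 in shPHF2; Nes, Sox2, Vim and Fabp7 were abundant in each library. Oligodendrocyte-lineage markers were also abundant through Olig1 and Olig2 (sums of 67506, 62826 and 82335), with Mog at 7.0 or fewer. Summed astrocyte markers, 5 of 6 of which had a row, went from 1222 to 2708 and 2802, with S100b rising and Gfap at 1.99, 10.8 and 20.5. Different genes carried these sums, since Aldh1l1 had 146, 152 and 1009 and Slc1a2 had 744, 1445 and 885. Neuron markers, 6 of 8 of which had a row, summed to 60607, 38894 and 39771, nearly all of it Map2. Of the 6, 1 rose (Syp), where 7.22% of all genes tested did. Without passing, Tubb3 stood higher in both shPHF2 libraries (104, 198 and 346). Map2, Rbfox3 (142, 87.5 and 13.3) and Snap25 stood lower in both, and Dcx lower in replicate 1 and higher in replicate 2, none passing. Microglial sums were 306 to 383, endothelial 176 to 334, erythroid 44.6 to 113 and fibroblast and pericyte 7.97 to 53.0. The part of the astrocyte and neuron marker shifts in the hexokinase and Pdk values was not tested.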

How the data were processed

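RNA was sequenced after removal of ribosomal RNA with a stranded kit, per the labels' protocols. HISAT2, HTSeq, DESeq2 and the build mm10 are named in the submitters' processing notes, without versions; the sources used here do not give the annotation, strand setting or treatment of multiply aligned reads. The deposited values are a signal, taken here as gene read counts divided by the DESeq2 size factor of each library. The column headers give only library names for these values and do not state the division. In each library 100% were whole multiples of the value of 1 read (within 0.001). The authors also deposited their DESeq2 output: log2 fold change, its standard error, the Wald score, and raw and adjusted p-values. The 4 rows that name no gene (61.4% to 61.5% of reads per library) were left out. All library columns were used (0 left over).

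The main test was limma 3.58.1 in R 4.3.3 on log2(value + 1) (mean-variance trend, two-sided, Benjamini-Hochberg adjustment over 14148 genes with a mean of at least 10). Fold changes on that scale understate those of low genes. The 1 residual degree of freedom comes from the shPHF2 libraries, with 6.94 prior degrees of freedom, and the control is assumed to vary like them. edgeR 4.0.16 and DESeq2 1.42.0 were run on the recovered reads. Positions and exon lengths are from GENCODE M21; pseudogenes were matched with blastn. The 10 genes and the lists were chosen with earlier results of these data known. Named besides the 10 were isoforms and partners of the same steps and, in each other list, up to 4 called genes and the one with most reads, with Phf2 and the 3 nearest genes to each hexokinase. Alternatives covered pseudocount, filter, trend, scaling, tool and left-out libraries.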

Additional observations from a re-analysis of the deposited data

How the results depend on the processing

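In 3 settings the fit left limma with 0 calls among all genes, 0 among the 10 genes and 0 among the other listed genes: no filter on low values, no mean-variance trend, and quantile normalization. At an unadjusted p under 0.05 they held 3893 of 16977, 3300 of 14148 and 3700 of 14148 genes. Of the 10 genes they held 5, 5 and 6. The cause was not tested. There the adjusted p was at most 0.17 for Hk1, 0.16 for Hk2, 0.18 for Pdk1 and 0.16 for Bnip3. Under the other 7 alternatives with a test (pseudocount of 5, minimum mean of 50, TMM scaling, scaling to total reads, edgeR, DESeq2, and a GC and length correction chosen after seeing the data) these 4 genes passed each time, with log2 fold changes of 0.88 to 1.10, -1.07 to -0.94, 0.94 to 1.12 and 1.34 to 1.70 over all 10 alternatives. The hexokinase difference ran from 1.95 to 2.05 over pseudocount, scaling and correction, and from 1.88 to 2.14 without 1 shPHF2 library. Leaving out a library leaves 1 against 1 and no test. No paired analysis was possible because there is only 1 control library. Reads in Pfkp (218 in shControl) and Bnip3 (149) limit their precision most among the 10 genes.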

Other observations

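Some listed genes differed widely between the shPHF2 libraries; those given here were chosen after seeing their values. The median absolute log2 difference between replicate 1 and replicate 2 was 0.22 over the 10 genes and 0.21 over all genes tested. It was 2.13 for Ndrg1, a hypoxia and differentiation gene with 22.9 normalised reads in shControl, 204 in replicate 1 and 45.8 in replicate 2. Car12, a membrane carbonic anhydrase, had 34.9, 32.5 and 176 in that order. Adm, which encodes the vasodilator peptide adrenomedullin, had 842, 248 and 649, and Stc2, a secreted glycoprotein of stress responses, had 663, 569 and 230. None of these 4 passed the test (limma, adjusted p of 0.14 for Ndrg1, 0.45 for Car12, 0.18 for Adm and 0.25 for Stc2). The authors' deposited table calls Ndrg1 (adjusted p = 0.048), which DESeq2 on the recovered reads did not (adjusted p = 0.056). Neither shPHF2 library was the higher one throughout, since Ndrg1 and Stc2 stood higher in replicate 1 and Car12 and Adm in replicate 2.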
